A study of Mus musculus with 13 samples.

Results

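The genes described here are those of the unfolded protein response and the integrated stress response, the programs that cells switch on when proteins misfold in the endoplasmic reticulum (ER) or when translation is held back. Members were 35 named genes, taken by symbol: sensors and transcription factors, ER chaperones, oxidative folding enzymes, components of ER-associated degradation, effectors of the integrated stress response and enzymes of amino acid synthesis. Of these, 32 were each read by a probe set assigned to that gene alone, out of 18820 genes measured in that way, and the probe set with the highest mean stood for a gene with several. Ero1a was listed under its older symbol Ero1l. Atf5, Ddit3 (CHOP) and Pdia4 were read only by a probe set shared with another gene and have no value here.

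Sensors in the ER membrane start the unfolded protein response: IRE1 (Ern1), PERK (Eif2ak3) and ATF6. IRE1 splices Xbp1 mRNA into the form that encodes an active transcription factor, ATF6 is cleaved to release one, and PERK phosphorylates the translation factor eIF2alpha, which slows translation in general while favouring ATF4. The branches through XBP1 and ATF6 are known for raising chaperones and degradation genes, and ATF4 for raising amino acid synthesis, amino acid transport and the factors CHOP, ATF3 and TRIB3; other kinases of eIF2alpha reach ATF4 without ER stress, hence the name integrated stress response. In adipose tissue the program is known for its link to obesity and to the heavy secretory load of adipocytes.

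RNA was taken from epididymal white adipose tissue, the fat pad beside the epididymis, of male mice aged 18 weeks. The wild-type mice were C57/BL6 (CD45.2+) and the knockout mice B6.129P2-P2rx7tm1Gab/J (P2X7-/-), which carry a disrupted gene for the ATP-gated channel P2X7 in every cell and had been crossed back to B6 for 7 generations. From 6 weeks of age the mice ate either chow, in which fat gave 13% of the energy, or a high-fat diet, in which it gave 60%, and both diets lasted 12 weeks. Each of the 4 combinations of genotype and diet had 3 arrays, except knockouts fed the high-fat diet with 4. The labels do not say whether an array stands for 1 animal or whether the genotypes were littermates, so p-values measure the spread between these 13 arrays, which limits the precision. All values are log2 expression levels as deposited, a difference of 1 being a doubling. Each gene was tested with limma, a linear model across all 18820 genes, and passed when its p-value, adjusted by the Benjamini-Hochberg method over all genes, was below 0.05; errors of changes are standard errors (SE) from that model.

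The arrays had medians between 5.72 and 5.88 and correlations between arrays of a group between 0.993 and 0.997. Neither is a check of array quality, since the deposited values had been normalized to make the arrays alike. The mean of 10 adipocyte markers was high, from 11.27 to 12.28 on every array, and that of 5 epididymis markers was between 3.35 and 4.02. P2rx7 itself read 7.91 to 8.41 in wild-type and 7.90 to 8.23 in knockout mice on chow, and 9.36 to 9.69 against 8.90 to 9.14 on high-fat diet. Which part of the transcript its probe set reads is not known here, so this level is no check of the genotype labels. Liver markers stood out on some arrays: the mean of 14 such genes was 7.24 to 8.15 in wild-type mice on chow, 5.53 to 7.20 in wild-type mice on high-fat diet, 6.13 to 6.20 in knockout mice on chow and 5.28 to 6.33 in knockout mice on high-fat diet. Replicate 1 of the wild-type chow arrays and replicate 2 of the wild-type high-fat arrays were the highest of their groups.

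The brightness of the stress response genes and their spread are given first. The group mean of 30 of the 32 members was above 6.56, the lowest median of any array over all genes, in at least 1 group, and for the other 2 it was below that level in every group. The SD within a group ranged from 0.007 to 0.448 over members and groups, with a median of 0.12. In wild-type mice the high-fat diet raised 16 members and lowered 5, with a median log2 change of 0.21 over the 32 members against -0.03 over all genes. Over all genes tested, 17.7% rose and 18.1% fell. Among knockout mice 4 members rose and 7 fell, with a median of 0.02 against -0.06 over all genes, where 14.5% rose and 19.7% fell. Groups did not overlap for 23 members in wild-type mice (43.3% of all genes) and for 14 in knockout mice (43.0% of all genes). The members that passed in both genotypes were 4 that rose (Atf3, Ern1, Dnajb11 and Pdia3) and 5 that fell (Xbp1, Herpud1, Chac1, Asns and Phgdh). A further 12 passed as higher in wild-type mice and did not pass in knockout mice, Syvn1 and Psat1 passed as lower in knockout mice and not in wild-type mice, and 9 passed in neither. None of these differences between the genotypes passed when tested directly, as given with the comparison of genotypes.

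**Figure D1:**
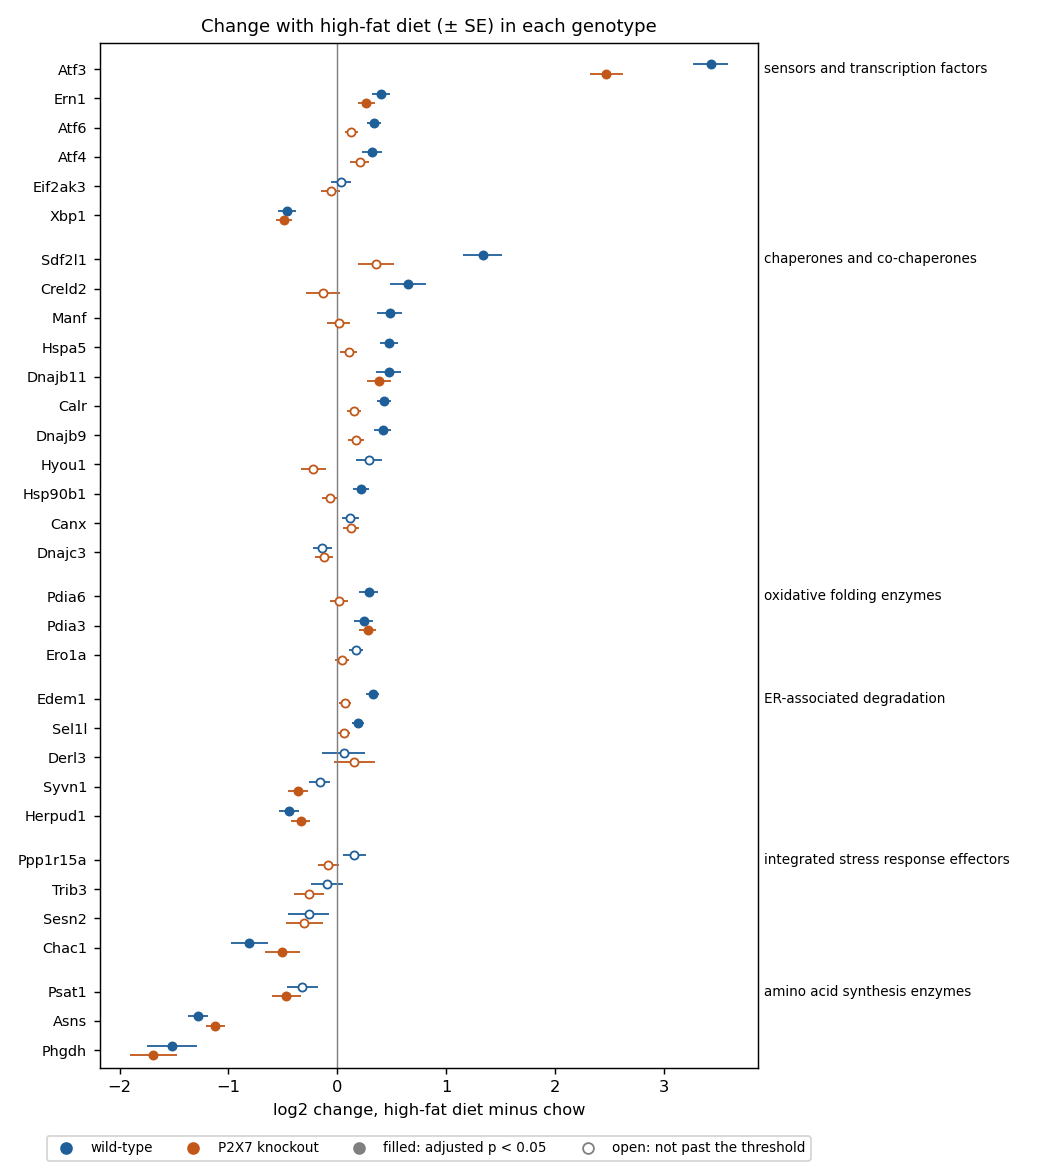
Log2 change with high-fat diet (horizontal axis, high-fat diet minus chow) of the 32 members, grouped by role, in wild-type mice (blue, 3 arrays against 3) and P2X7 knockout mice (orange, 4 arrays against 3). Points are estimates and lines ± 1 SE; filled points passed the limma threshold. Atf3 stands far to the right in both genotypes, most chaperones are filled in blue and open in orange, and Asns and Phgdh stand far to the left in both.

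These values come from whole tissue, in which fewer cells of a type and less RNA per cell cannot be told apart. Marker genes of several cell types also moved with the diet. Of 10 macrophage markers 9 rose and 1 fell in each genotype, with list means of 8.88 to 9.31 in wild-type and 9.13 to 9.41 in knockout mice on chow and of 10.36 to 10.75 and 10.38 to 10.61 on high-fat diet. All 7 genes of cell division rose in both genotypes, from means of 5.85 to 6.46 on chow to means of 8.11 to 8.62 on high-fat diet. Of 10 adipocyte markers 9 fell in wild-type and 8 in knockout mice, and 1 rose in each, with means of 12.10 to 12.28 on chow and 11.27 to 11.75 on high-fat diet. Of 14 liver markers 9 fell in wild-type and 2 in knockout mice, and none rose. Of 7 mesothelial markers 6 fell in wild-type and 7 in knockout mice, with list means of 8.67 to 9.58 on chow and 7.38 to 8.57 on high-fat diet. Of 9 mast cell markers 5 and 7 rose and none fell, from means of 5.48 to 5.90 to means of 5.84 to 7.40. Of 8 fibroblast markers 4 and 5 rose and 1 fell in each genotype, from means of 9.81 to 10.01 to means of 10.19 to 10.49. Of 7 endothelial markers 5 and 2 fell and none rose, from means of 9.74 to 9.91 to means of 9.04 to 9.74. Plasma cell markers rose for 2 and 3 of 7 and pancreatic acinar ones for 1 of 8 in each, while 2 of the 8 acinar and 1 of 5 epididymis markers fell in knockout mice. With the mean of the liver markers as a covariate 9 members rose in wild-type mice in place of 16, and over all genes 2101 rose in place of 3327. That mean did not overlap between the wild-type diets (7.24 to 8.15 on chow and 5.53 to 7.20 on high-fat diet). Diet and liver mean can therefore not be told apart by this setting. The part of any of these lists in the changes of the stress response genes was not tested. The 4 rises in knockout mice became 1, Atf3, without chow replicate 3 of that genotype, where 2409 of all genes rose in place of 2721. With array weights they became 8, and 3114 of all genes rose.

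Among the sensors and transcription factors, 4 of the 6 measured rose with the high-fat diet in wild-type mice and 2 in knockout mice, while Xbp1 fell in both. Beside the count of each role stand the shares over all genes, 17.7% that rose and 18.1% that fell in wild-type mice. In knockout mice they were 14.5% and 19.7%. Atf3, a stress-induced repressor and activator of the ATF family, read 8.37, 7.68 and 8.24 in wild-type mice on chow and 11.74, 11.21 and 11.63 on high-fat diet. In knockout mice Atf3 read 8.85, 8.70 and 8.75 on chow and 11.13, 11.31, 11.25 and 11.28 on high-fat diet. Every high-fat array lay more than 2 log2 units above every chow array, with no overlap in either genotype. The change was 3.43 ± 0.16 in wild-type mice, or 10.8-fold (limma adjusted p 3.18e-08), and 2.48 ± 0.15 in knockout mice, or 5.56-fold (adjusted p 1.28e-07). Its rise was the largest of any member in both genotypes.

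Xbp1, the substrate of IRE1, read 11.33, 11.62 and 11.55 in wild-type mice on chow and 11.08, 11.04 and 11.00 on high-fat diet. Knockout mice had Xbp1 levels of 11.51, 11.56 and 11.49 on chow and 11.10, 11.00, 11.15 and 10.89 on high-fat diet. The chow arrays were higher without overlap in both genotypes. Xbp1 fell by 0.46 ± 0.08 in wild-type and by 0.49 ± 0.07 in knockout mice (limma adjusted p 0.000397 and 0.000180). The probe set gives the level of the transcript and not the share that is spliced.

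Atf4, the transcription factor favoured when eIF2alpha is phosphorylated, read 7.57, 7.36 and 7.27 in wild-type mice on chow and 7.75, 7.59 and 7.80 on high-fat diet. Its values in knockout mice were 7.37, 7.60 and 7.52 on chow and 7.69, 7.65, 7.75 and 7.73 on high-fat diet. The high-fat arrays were higher than the chow arrays of the same genotype without overlap, by small margins. The change was 0.32 ± 0.09 in wild-type mice (adjusted p 0.0154 with limma) and 0.21 ± 0.09 in knockout mice, which did not pass (adjusted p 0.0802). The wild-type call was lost in 8 of the 24 alternative settings. ATF4 is controlled largely at translation, which an array does not read.

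The 3 sensors moved less than Atf3. Ern1, which encodes IRE1, rose by 0.40 ± 0.08 in wild-type mice and by 0.27 ± 0.08 in knockout mice (limma adjusted p 0.00186 and 0.0169). Atf6 rose by 0.34 ± 0.06 in wild-type mice (adjusted p 0.000590) and changed by 0.13 ± 0.06 in knockout mice without passing (adjusted p 0.0921). Eif2ak3, which encodes PERK, differed by 0.04 ± 0.09 and -0.06 ± 0.09, and passed in neither genotype.

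**Figure D2:**
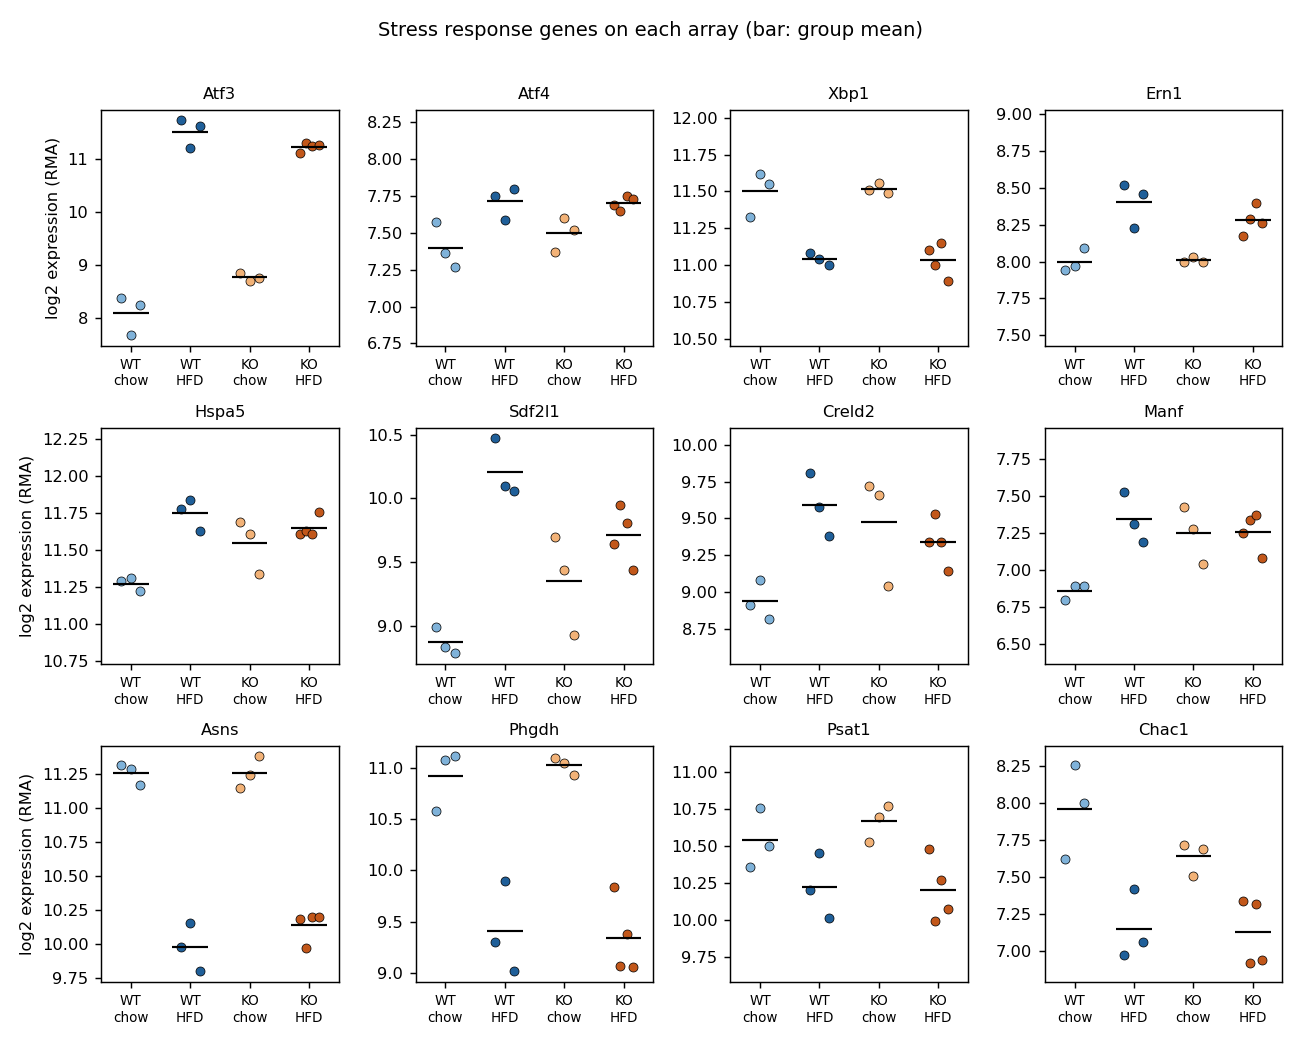
Log2 expression level (vertical axis) of 12 members on each array, by group: wild-type (WT) and P2X7 knockout (KO) mice on chow and on high-fat diet (HFD). Each point is 1 array and each bar the group mean, and each panel has its own scale; Atf3 rises from between 7.68 and 8.85 on chow to between 11.13 and 11.74 on high-fat diet, and Asns falls from between 11.15 and 11.38 to between 9.80 and 10.20.

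The ER chaperones are shown first by their promoters, because many of them share a short element. The ER stress response element is the classic site through which cleaved ATF6 and XBP1 act together with the factor NF-Y, and consists of CCAAT, a gap of 9 bases and CCACG. It was searched on both strands in RefSeq windows from 250 bases before to 50 bases after each gene's start (build GRCm38.p6). Of the 32 members 29 had a window; Atf6, Hyou1 and Manf had none in the table used. The element stood in the windows of 9 of 29 members (31.0%) and of 0.137% of the 27025 genes with a window (0.119% of 32851 windows). These matches are runs of letters, not measured binding sites, and the members were gathered from knowledge in which this element has a part. The 10 matches follow with 10 bases on each side, written 5′ to 3′ on the strand of the gene, with the element in capitals; where it lies on the opposite strand it reads CGTGG, 9 bases, ATTGG. Hsp90b1 holds it in 2 places.
Calr, chr8:84847065-84847103, minus strand: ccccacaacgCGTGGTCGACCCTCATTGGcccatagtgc
Canx, chr11:50325790-50325828, minus strand: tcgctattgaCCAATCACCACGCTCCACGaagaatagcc
Creld2, chr15:88819510-88819548, plus strand: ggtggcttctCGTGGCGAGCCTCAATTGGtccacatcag
Derl3, chr10:75893232-75893270, plus strand: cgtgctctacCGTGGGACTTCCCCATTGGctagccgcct
Dnajc3, chr14:118937817-118937855, plus strand: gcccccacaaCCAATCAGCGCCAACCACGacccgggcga
Hsp90b1, chr10:86705523-86705561, minus strand: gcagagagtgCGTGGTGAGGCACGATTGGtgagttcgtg
Hsp90b1, chr10:86705628-86705666, minus strand: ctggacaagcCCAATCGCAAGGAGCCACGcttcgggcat
Hspa5, chr2:34772015-34772053, plus strand: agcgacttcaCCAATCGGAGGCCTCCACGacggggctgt
Pdia6, chr12:17266481-17266519, plus strand: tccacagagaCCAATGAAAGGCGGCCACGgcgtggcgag
Syvn1, chr19:6046522-6046560, plus strand: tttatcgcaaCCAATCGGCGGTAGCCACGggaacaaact

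The promoter of Hspa5, the gene on which this element was first worked out, is shown over a longer stretch upstream of the start. Below it stands that of Sdf2l1, the chaperone with the largest diet change in wild-type mice, which lacks the element with its 9-base gap but holds its parts at other spacings. Capitals mark the whole element in Hspa5 and, in Sdf2l1, each CCAAT or CCACG on either strand.
Hspa5, chr2:34771940-34772089, plus strand: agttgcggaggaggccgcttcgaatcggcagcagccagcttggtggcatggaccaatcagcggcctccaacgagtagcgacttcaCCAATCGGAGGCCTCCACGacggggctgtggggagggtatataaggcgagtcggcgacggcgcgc
Sdf2l1, chr16:17132384-17132533, minus strand: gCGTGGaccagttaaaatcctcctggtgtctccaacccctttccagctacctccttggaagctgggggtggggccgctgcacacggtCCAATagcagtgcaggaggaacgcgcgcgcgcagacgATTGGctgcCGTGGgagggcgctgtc

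Chaperones and co-chaperones were the role with the most members that rose in wild-type mice, 8 of 11 with none that fell and a median change of 0.43. In knockout mice 1 of the 11, Dnajb11, rose and none fell, with a median of 0.10. Hspa5, which encodes BiP, the main ER chaperone and the protein that holds the sensors inactive, read 11.29, 11.31 and 11.22 in wild-type mice on chow and 11.78, 11.84 and 11.63 on high-fat diet. In knockout mice Hspa5 read 11.69, 11.61 and 11.34 on chow and 11.61, 11.63, 11.61 and 11.76 on high-fat diet. The wild-type chow arrays lay below all other 10 arrays, and the knockout groups overlapped. Hspa5 rose by 0.48 ± 0.09 in wild-type mice, or 1.39-fold (limma adjusted p 0.000543), and differed by 0.10 ± 0.08 in knockout mice (adjusted p 0.351).

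Sdf2l1, a small ER protein that works with the co-chaperone ERdj3, showed the widest range of the chaperones. Its levels in wild-type mice were 8.99, 8.84 and 8.79 on chow and 10.47, 10.10 and 10.06 on high-fat diet. In knockout mice they were 9.70, 9.44 and 8.93 on chow and 9.64, 9.95, 9.81 and 9.44 on high-fat diet. The wild-type groups were far apart, while the knockout groups overlapped and lay, apart from chow replicate 3, between the wild-type groups. The rise in wild-type mice was 1.34 ± 0.18, or 2.53-fold (limma adjusted p 5.16e-05), against 0.35 ± 0.17 in knockout mice, which did not pass (adjusted p 0.123).

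Creld2, a secreted and ER-retained protein known as a marker of ER stress, rose by 0.65 ± 0.16 in wild-type mice, where it went from between 8.82 and 9.08 to between 9.38 and 9.81. In knockout mice it lay between 9.04 and 9.72 on chow and between 9.14 and 9.53 on high-fat diet, a difference of -0.13 ± 0.15. Manf, another protein that cells retain or secrete with the state of the ER, rose by 0.49 ± 0.12 in wild-type mice, from between 6.80 and 6.89 to between 7.19 and 7.53, and differed by 0.01 ± 0.11 in knockout mice. Both genes had their lowest group mean in wild-type mice on chow.

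Of the J-domain co-chaperones that guide BiP to its clients, Dnajb11 (ERdj3) rose in both genotypes, by 0.47 ± 0.12 in wild-type and 0.38 ± 0.11 in knockout mice (limma adjusted p 0.00617 and 0.0160). Dnajb9 (ERdj4) rose by 0.42 ± 0.08 in wild-type mice and changed by 0.17 ± 0.07 in knockout mice without passing. Dnajc3 (p58IPK), also an inhibitor of PERK, differed by -0.14 ± 0.09 and -0.12 ± 0.08 and passed in neither. Calr, the soluble lectin chaperone calreticulin, rose by 0.43 ± 0.07 in wild-type mice and changed by 0.15 ± 0.06 in knockout mice without passing. Its membrane-bound relative Canx, calnexin, differed by 0.12 and 0.13 and passed in neither genotype. Hsp90b1 (GRP94) rose by 0.22 ± 0.08 in wild-type mice, a call lost in 13 of 24 alternative settings, and differed by -0.07 ± 0.07 in knockout mice. Hyou1, a large chaperone that also exchanges the nucleotide of BiP, differed by 0.29 ± 0.12 and -0.22 ± 0.11 and passed in neither.

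Set beside the promoters, 5 of the 9 members with the ER stress response element rose in wild-type mice (Hspa5, Creld2, Calr, Hsp90b1 and Pdia6), none fell, and Canx, Dnajc3, Derl3 and Syvn1 did not pass. Among knockout mice none of the 9 rose and Syvn1 fell. Their median change was 0.22 in wild-type and 0.02 in knockout mice, beside 0.21 and 0.02 over all 32 members. A shorter form, element II, has ATTGG, 1 base and CCACG. It stood in the windows of Dnajb11 and Herpud1 (6.9% of members, 0.0444% of all genes), of which Dnajb11 rose and Herpud1 fell in both genotypes. In Dnajb11 it lies after the start, so only Herpud1 is shown, with the element in capitals.
Herpud1 element II, chr8:94386367-94386397, plus strand: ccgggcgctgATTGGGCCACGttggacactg
The XBP1-type letters TGACGTGG were in no member's window and in 0.714% of all genes.

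The 3 measured enzymes of oxidative folding, which form and reshuffle disulfide bonds, had 2 that rose in wild-type mice and 1 in knockout mice. Pdia6, a protein disulfide isomerase that binds BiP and IRE1, rose by 0.29 ± 0.09 in wild-type mice (adjusted p 0.0182 with limma) and differed by 0.02 ± 0.08 in knockout mice. Pdia3 (ERp57), the isomerase that works with calnexin and calreticulin, rose in both, by 0.24 ± 0.09 and 0.28 ± 0.08 (adjusted p 0.0403 and 0.0150). The wild-type call of Pdia3 was lost in 13 of 24 alternative settings. Ero1a, the oxidase that recharges the isomerases, differed by 0.17 ± 0.07 and 0.05 ± 0.06 and passed in neither genotype.

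Genes of ER-associated degradation, which extracts misfolded proteins from the ER for the proteasome, went both ways. Edem1, which picks out misfolded glycoproteins, rose by 0.33 ± 0.06 in wild-type mice (adjusted p 0.000640 with limma), and Sel1l, the scaffold of the HRD1 ubiquitin ligase, by 0.19 ± 0.06 (adjusted p 0.0170). In knockout mice Edem1 differed by 0.07 ± 0.06 and Sel1l by 0.06 ± 0.05, and neither passed. Herpud1, which organises the HRD1 complex, fell in both genotypes, by 0.44 ± 0.09 and 0.33 ± 0.09 (adjusted p 0.00233 and 0.00989). Syvn1, which encodes HRD1 itself, fell by 0.36 ± 0.09 in knockout mice (adjusted p 0.00702) and differed by -0.16 ± 0.10 in wild-type mice. Derl3, a channel component known from secretory cells, was among the 2 dimmest members. It reached its highest level, 6.47, on high-fat replicate 2 of the knockout mice, the array on which the mean of 7 plasma cell markers was also highest at 7.30; the part of those cells in its level was not tested.

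The ATF4 side of the program is also shown by its promoters. The ATF4-type letters, TGATG, 1 base and AA, were searched in the same windows and on both strands. They stood in the windows of 5 of 29 members (17.2%), namely Asns, Atf3, Chac1, Herpud1 and Trib3, and of 4.51% of all genes. In Herpud1 they lie apart from element II. The match of Trib3 lies after the start and is not shown; the other 4 follow with 10 bases on each side, 5′ to 3′ on the strand of the gene, with the match in capitals (TT, 1 base and CATCA where it is on the opposite strand).
Asns, chr6:7693215-7693242, minus strand: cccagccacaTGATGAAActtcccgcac
Atf3, chr1:191183426-191183453, minus strand: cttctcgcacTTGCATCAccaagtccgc
Chac1, chr2:119351039-119351066, plus strand: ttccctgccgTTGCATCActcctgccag
Herpud1, chr8:94386307-94386334, plus strand: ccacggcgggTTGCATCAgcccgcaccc

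The next stretches place that match in the upstream sequence of the member that rose most and of the amino acid enzyme with the match, again in capitals.
Atf3, chr1:191183334-191183483, minus strand: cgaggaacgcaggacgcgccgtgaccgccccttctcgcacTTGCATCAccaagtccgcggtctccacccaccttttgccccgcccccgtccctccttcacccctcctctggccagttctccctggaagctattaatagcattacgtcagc
Asns, chr6:7693210-7693359, minus strand: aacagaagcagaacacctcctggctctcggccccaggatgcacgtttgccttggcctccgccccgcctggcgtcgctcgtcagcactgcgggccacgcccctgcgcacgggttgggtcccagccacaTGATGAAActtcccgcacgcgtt

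Of these 5 members Atf3 rose in both genotypes, Asns, Chac1 and Herpud1 fell in both, and Trib3 passed in neither.

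No effector of the integrated stress response rose in either genotype, and 1 of the 4 fell in both. Chac1, which degrades glutathione, lay between 7.62 and 8.26 in wild-type mice on chow and between 6.97 and 7.42 on high-fat diet, a fall by 0.81 ± 0.17 (limma adjusted p 0.00212). In knockout mice it went from between 7.51 and 7.72 to between 6.92 and 7.34, a fall by 0.51 ± 0.16 (adjusted p 0.0256). Ppp1r15a (GADD34), which removes the phosphate from eIF2alpha, differed by 0.16 ± 0.11 and -0.08 ± 0.10. Trib3, a pseudokinase that damps AKT signalling, differed by -0.09 ± 0.15 and -0.26 ± 0.14. Sesn2, a leucine sensor upstream of mTORC1, differed by -0.26 ± 0.18 and -0.30 ± 0.17. None of these 3 passed in either genotype.

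The enzymes of amino acid synthesis had the deepest falls of the members. Asns, which makes asparagine and is a standard target of ATF4, read 11.32, 11.29 and 11.17 in wild-type mice on chow and 9.98, 10.15 and 9.80 on high-fat diet. Its levels in knockout mice were 11.15, 11.24 and 11.38 on chow and 10.18, 9.97, 10.20 and 10.20 on high-fat diet. The diets were far apart, the lowest chow value being 11.15 and the highest high-fat value 10.20. Asns thus fell by 1.28 ± 0.09, or 2.43-fold, in wild-type mice (limma adjusted p 2.84e-07), while the knockouts had a fall by 1.12 ± 0.09, or 2.17-fold (adjusted p 7.21e-07).

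Phgdh, the first enzyme of serine synthesis, read 10.58, 11.08 and 11.11 in wild-type mice on chow and 9.30, 9.90 and 9.02 on high-fat diet. In knockout mice Phgdh read 11.10, 11.05 and 10.93 on chow and 9.84, 9.07, 9.38 and 9.06 on high-fat diet. The high-fat arrays were lower without overlap and more spread than the chow arrays. For Phgdh the fall by 1.52 ± 0.23 in wild types had a limma adjusted p of 0.000161, and the fall by 1.69 ± 0.22 in knockouts one of 4.53e-05. It has 2 further probe sets, whose mean changes were -1.51 and -0.69 in wild-type and -1.54 and -0.73 in knockout mice; copies of Phgdh could share these signals, so its size is uncertain while its direction was the same on all 3. Psat1, the next enzyme of the serine pathway, differed by -0.32 ± 0.14 in wild-type mice without passing (adjusted p 0.0962) and fell by 0.47 ± 0.13 in knockout mice (adjusted p 0.0139).

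Further genes of the same pathways, a list of 91 of which 80 were measured alone, were counted beside the members. In wild-type mice 24 rose and 11 fell, and in knockout mice 17 rose and 15 fell, beside 17.7% and 18.1% and 14.5% and 19.7% of all genes. Their median change was 0.08 and 0.05. The 23 other ER folding and transport genes had 10 that rose and 1 that fell in wild-type mice, against 6 and 1 with the knockout. Kdelr3, a receptor that returns chaperones to the ER, rose by 1.04 ± 0.12 in wild-type and 0.86 ± 0.11 in knockout mice, and the disulfide isomerase Pdia5 by 0.80 ± 0.09 and 0.64 ± 0.08. The oxidase Ero1b rose by 0.94 ± 0.13 and 0.49 ± 0.12. Sec23b, a coat protein of vesicles leaving the ER, rose by 0.38 ± 0.06 in wild-type mice and did not pass in knockout mice (0.12 ± 0.05). Sil1, a nucleotide exchange factor of BiP, fell by 0.29 ± 0.07 and 0.26 ± 0.07.

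Of 13 other degradation genes 2 rose and 1 fell in wild-type mice and 1 rose and 2 fell in knockout mice. The mannosidase-like Edem2 rose by 0.40 ± 0.09 and Derl2 by 0.28 ± 0.10 in wild-type mice, and neither passed in knockout mice (0.19 ± 0.08 and 0.08 ± 0.10). Derl1, their partner at the exit channel, fell by 0.57 ± 0.06 and 0.51 ± 0.06. Of 14 other regulators 4 rose and 3 fell in wild-type mice, against 2 and 3 with the knockout. Wfs1, the ER membrane protein wolframin, rose most, by 2.26 ± 0.14 and 1.63 ± 0.14, or 4.80-fold and 3.10-fold (limma adjusted p 1.16e-07 and 1.20e-06). The eIF2alpha kinase Eif2ak4 (GCN2), a sensor of uncharged tRNA, rose by 0.21 ± 0.07 and 0.29 ± 0.06. Cebpb and Atf6b rose in wild-type mice, by 0.44 ± 0.08 and 0.31 ± 0.10, and did not pass in knockout mice (0.09 ± 0.08 and -0.09 ± 0.09). Crebrf fell by 0.61 ± 0.08 and 0.45 ± 0.08, the protease Mbtps1 (S1P), which cleaves ATF6, by 0.21 ± 0.05 and 0.14 ± 0.05, and Creb3l2 by 0.28 ± 0.09 and 0.52 ± 0.08.

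The 30 other targets of ATF4 and CHOP moved in both directions, with 8 that rose and 6 that fell in wild-type and 8 and 9 in knockout mice. Mthfd2 of mitochondrial folate metabolism rose by 1.05 ± 0.13 and 0.88 ± 0.12, Shmt2 of the same pathway by 0.50 ± 0.10 and 0.34 ± 0.09, and Aldh18a1 of proline synthesis by 0.90 ± 0.09 and 0.40 ± 0.09. The cysteinyl-tRNA synthetase Cars rose by 0.55 ± 0.08 and 0.23 ± 0.08. Stc2, a secreted glycoprotein, fell by 2.05 ± 0.19 and 1.93 ± 0.17, or 4.14-fold and 3.82-fold (limma adjusted p 1.78e-06 and 2.22e-06). Cbs, which makes cystathionine, fell by 1.23 ± 0.18 and 1.53 ± 0.17, the translation repressor Eif4ebp1 by 1.02 ± 0.13 and 0.95 ± 0.12, and the glutamine transporter Slc1a5 by 0.75 ± 0.12 and 0.60 ± 0.11. Cdsn stood in this list although its place there is doubtful; without it the counts were 8 and 5 of 29 in wild-type and 8 and 8 in knockout mice.

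**Figure D3:**
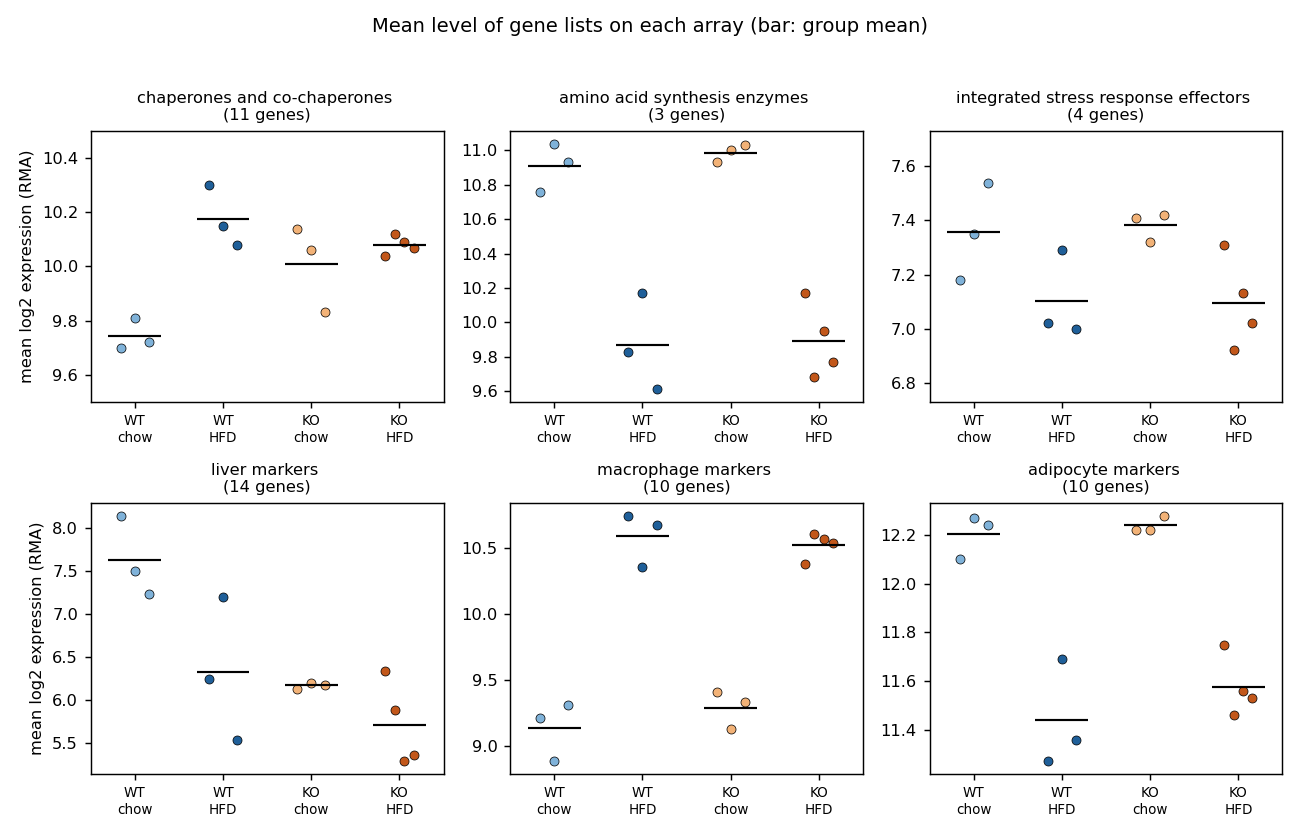
Mean log2 expression level (vertical axis) over the genes of 3 member roles (upper panels) and 3 marker lists (lower panels) on each array of wild-type (WT) and P2X7 knockout (KO) mice on chow and high-fat diet (HFD). Each point is 1 array and each bar the group mean. The chaperone mean is lowest in wild-type mice on chow (9.70 to 9.81), and the liver mean is highest there (7.24 to 8.15). A link between these lists was not tested.

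The design also asks whether the loss of P2X7 altered these levels on either diet. No member passed for genotype on chow (25 of 18820 genes did, 0.133%), on high-fat diet (8 genes, 0.0425%) or averaged over the diets (20 genes, 0.106%). With limma 13 of the 32 members had an unadjusted p under 0.05 on chow, 1 on high-fat diet and 1 averaged over the diets, beside 1810, 1394 and 1361 of all genes. The 80 other pathway genes likewise had none that passed, with 11, 4 and 6 at an unadjusted p under 0.05.

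On chow 29 of the 32 members were higher in knockout than in wild-type mice (90.6%), beside 58.3% of all genes, with a median difference of 0.12 beside 0.02. All 11 chaperones were higher, with a median of 0.28, and 7 of them had an unadjusted p under 0.05. The values of Hspa5 and Sdf2l1 above show the pattern: Hspa5 was 0.28 ± 0.09 higher without overlap (limma adjusted p 0.295) and Sdf2l1 0.48 ± 0.18 higher with overlap (adjusted p 0.398). Atf3 was 0.67 ± 0.16 higher (adjusted p 0.200), Creld2 0.53 ± 0.16 (0.300), Manf 0.39 ± 0.12 (0.279) and Dnajb9 0.34 ± 0.08 (0.168, the lowest of any member). The groups did not overlap for 7 members, Atf3, Atf6, Dnajb9, Edem1, Ero1a, Hspa5 and Manf, beside 14.9% of all genes.

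The arrays of knockout mice on chow were not alike. On replicate 3 of that group 10 of the 11 chaperones were lower than on the other 2 arrays. So were 2 of 6 sensors and transcription factors and 2 of 3 folding enzymes. Lower there too was 1 each of 5 degradation genes, 4 effectors and 3 amino acid enzymes. The chaperone mean on replicate 3 was 9.83 against 10.14 and 10.06, beside 9.70 to 9.81 in wild-type mice on chow. The mean of 7 mesothelial markers was also lower on that array, at 8.67 against 9.58 and 9.50; its part was not tested. Without it the difference was 0.38 for Hspa5, 0.70 for Sdf2l1 and 0.75 for Creld2, and none of the 3 passed (limma adjusted p 0.124, 0.207 and 0.0733). Liver markers went the other way from the chaperones: all 14 were lower in knockout mice on chow, with a median of -1.51 and none past the threshold, 13 having an unadjusted p under 0.05. With the liver score as a covariate the difference on chow was 0.36 for Hspa5, 0.56 for Sdf2l1 and 0.49 for Atf3, and none passed (adjusted p 0.419, 0.541 and 0.541). In that setting 0 of all 18820 genes passed, in place of 25. The liver mean did not overlap between the chow groups (7.24 to 8.15 in wild-type and 6.13 to 6.20 in knockout mice). Genotype and liver mean can therefore not be told apart on chow.

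**Figure D4:**
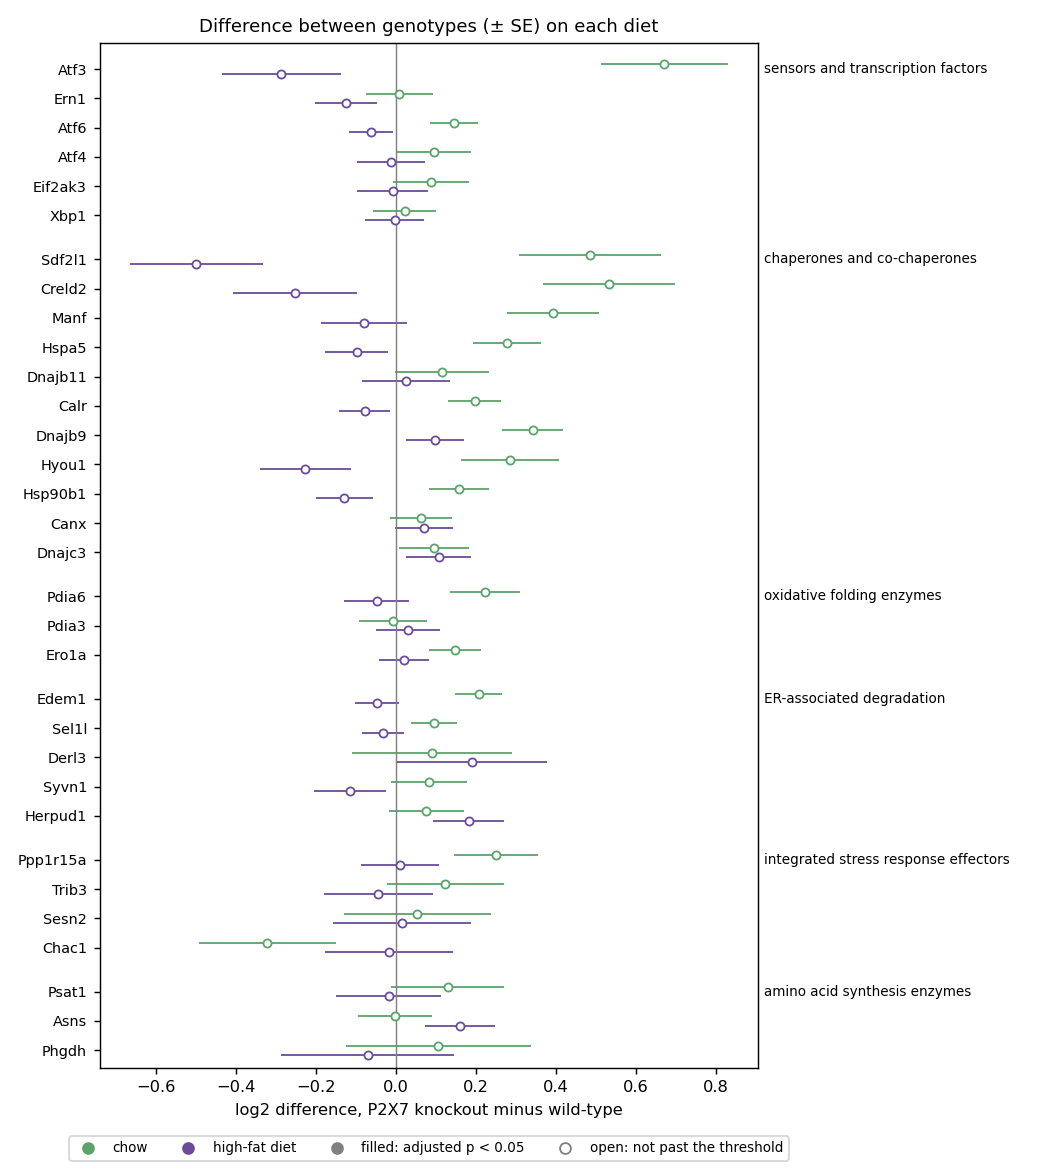
Log2 difference between genotypes (horizontal axis, P2X7 knockout minus wild-type) of the 32 members, grouped by role, on chow (green, 3 arrays against 3) and on high-fat diet (purple, 4 arrays against 3). Points are estimates and lines ± 1 SE; all points are open, since no member passed the limma threshold, and the green points of all 11 chaperones lie right of 0.

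On high-fat diet 11 of the 32 members were higher in knockout mice and 21 lower, with a median of -0.03 beside -0.01 over all genes. Sdf2l1 was the member with an unadjusted p under 0.05, at -0.50 ± 0.17 (limma adjusted p 0.595), and all 4 of its knockout arrays (9.44 to 9.95) lay below the 3 wild-type arrays (10.06 to 10.47). The groups did not overlap for 4 members, Sdf2l1, Calr, Hsp90b1 and Herpud1, beside 6.67% of all genes.

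Whether the diet acted differently in the genotypes was tested by the interaction, the change in knockout minus the change in wild-type mice. No member passed, and none of the 18820 genes did (0.00%); 12 members and 1829 of all genes had an unadjusted p under 0.05 with limma. The interaction was negative for 25 of the 32 members, with a median of -0.16, beside 11019 of 18820 genes and a median of -0.03, and for 9 of the 11 chaperones, 8 of which had an unadjusted p under 0.05. It was -0.98 ± 0.24 for Sdf2l1 (adjusted p 0.320), -0.96 ± 0.22 for Atf3 (0.307), -0.79 ± 0.23 for Creld2 (0.350) and -0.38 ± 0.12 for Hspa5 (0.368). The interaction, the diet changes and the genotype differences share arrays and are given side by side, not as separate evidence. Without high-fat replicate 2 of the wild-type mice Atf3 passed, at -1.12 (limma adjusted p 0.0352). In that setting 21 of all genes rose and 85 fell in the interaction, where none had passed with all arrays. A further setting also left out wild-type chow replicate 1, the array with the highest liver mean of its group, and no knockout array. Every wild-type chow array had a higher liver mean (7.24 to 8.15) than the high-fat array left out (7.20). For Atf3 this setting gave -1.26 for the interaction (limma adjusted p 0.0213) and 0.81 for the difference on chow (adjusted p 0.0469). The arrays to leave out were chosen after the values were seen.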

How the data were processed

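Total RNA (100 ng) of 13 adipose samples was hybridised to Affymetrix whole-transcript arrays. Per the submitters' processing notes the deposited log2 values were made with RMA, whose version and settings are not given in the sources used here. RMA quantile-normalizes the arrays, so a shift shared by most genes is removed.

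Of 35556 probe sets, 21218 named 1 gene in the platform annotation, 1881 several and 12457 none. The first were used, with the highest-mean probe set per gene, giving 18820 genes and no filter on dim ones. Symbols were matched to RefSeq through Entrez numbers for 18790 genes. One limma model with the 4 groups as means and an intensity trend (limma 3.58.1, R 4.3.3) gave all contrasts, with Benjamini-Hochberg adjustment over all genes. Tables and promoter searches were made with Python 3.11.15, pandas 2.3.3 and numpy 2.4.6, and plots with matplotlib 3.10.9. The steps were checked on simulated data.

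Members and lists were chosen with earlier results of these data known. Values on every array were given for Hspa5, Xbp1, Atf4 and Ddit3 (which could not be read alone), for members that passed for diet with a log2 change of at least 1 in size, and for any that passed for genotype or interaction. Of each other pathway list, up to 4 genes per direction with the smallest p in wild-type mice were named. Alternatives changed the variance model, scaling, dim-gene filter (log2 5 on 3 arrays), probe sets per gene, array weights, groups fitted, the liver mean as a covariate and a block for the replicate number; single arrays were also left out.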

Additional observations from a re-analysis of the deposited data

Results flagged for a closer look

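Among knockout mice on high-fat diet, the only group of 4 arrays, 4 of the 32 members had 1 array standing apart by Dixon's criterion, which chance meets in about 1 group in 20. Replicate 4 was the highest for Hspa5 (11.76, next 11.63), Dnajb11 (9.52, next 9.10) and Dnajc3 (10.24, next 9.99). Replicate 2 was the lowest for Asns (9.97, next 10.18).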

How the results depend on the processing

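Each result was recomputed under up to 24 alternatives, and no called value changed sign. In wild-type mice 9 of the 16 rises (Atf3, Atf6, Calr, Creld2, Dnajb9, Edem1, Hspa5, Manf and Sdf2l1) and 4 of the 5 falls (all but Chac1) passed in all of them, and in knockout mice 1 of the 4 rises (Atf3) and 4 of the 7 falls (Asns, Phgdh, Syvn1 and Xbp1). Leaving out 1 array at a time gave 11 to 16 rises and 5 to 7 falls in wild-type mice, 1 to 6 rises and 5 to 8 falls in knockout mice and 0 to 1 fall in the interaction. The low of 1 rise came without knockout chow replicate 3, where over all genes 2409 rose in knockout mice. The 1 fall in the interaction, Atf3, came without wild-type high-fat replicate 2, where over all genes 21 rose and 85 fell. With the liver mean as a covariate 9 members rose in wild-type mice, where over all genes rises went from 3327 to 2101 and falls from 3409 to 1818. The liver mean did not overlap between the wild-type diets or between the genotypes on chow, so it cannot be told apart from either. With array weights 8 members rose in knockout mice, where over all genes rises went from 2721 to 3114 and falls from 3708 to 4538. The cause was not tested. Another alternative, added after the data were seen, left out the wild-type array with the highest liver mean on each diet. It gave 7 rises in knockout mice, 1 member higher in knockout mice on chow and 1 fall in the interaction. Over all genes 2921 rose in knockout mice in place of 2721, and 9 rose and 50 fell in the interaction in place of none. On chow 6 of all genes were higher and 15 lower in knockout mice, in place of 9 and 16. Centring each array on its median gave 11 rises and 6 falls in wild-type mice, or 64.7% rises against 76.2%. Over all genes that setting gave 2832 rises and 4523 falls in place of 3327 and 3409.

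The replicate number as a block gave 16 rises and 5 falls in wild-type mice, 3 rises and 6 falls in knockout mice and 0 for genotype and interaction. Deviations of same-numbered arrays correlated between -0.30 and 0.22 (median 0.01, 18 pairs, 5 over 0.1). Those of differently numbered arrays correlated between -0.41 and 0.53 (median -0.01, 45 pairs, 10 over 0.1), so the numbers were not taken to pair samples. The value of 0.53 was that of wild-type high-fat replicate 2 and knockout high-fat replicate 1. Each had the highest liver mean of its group (7.20 and 6.33). Fitting only the groups compared was not run for the averaged genotype difference and the interaction, which use all groups.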
